A study of Saccharomyces cerevisiae with 8 samples.

Results

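The genes described here carry the names of proteins of the yeast mitochondrial ribosome. They were taken as every ID of the table whose standard gene name in the R64 annotation, found by locus tag, is MRPL, MRPS, MRP or RSM followed directly by a number. Of 67 IDs with such a name, 65 had a value on at least 1 array, out of 5519 IDs with a value in the whole table. Among those 65, 32 were large-subunit genes (MRPL), 20 were small-subunit genes (MRPS and RSM), and 13 carried MRP names, which are spread over both subunits. MRP8, of the MRP names, and RSM22, of the small-subunit genes, are included by name only. MRPL13 and MRPL17 had no value on any array, and 51 members had a value on all 8.

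Mitochondria translate the few messages of their own DNA, most of which encode core subunits of the respiratory chain, on a ribosome that differs from that of the cytosol. In yeast nearly all of its proteins are made from nuclear genes, translated in the cytosol and imported. Many descend from bacterial ribosomal proteins, and others are found only in mitochondrial ribosomes. Pif1, the helicase deleted in the mutant, acts on DNA in the nucleus and in the mitochondrion, where it helps to maintain the mitochondrial genome.

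In all, 4 kinds of RNA were compared in pairs on 8 spotted arrays, all from Saccharomyces cerevisiae BY4741 grown in YPD at 28 °C to an A660 of 0.6. They came from the pif1 mutant (pif1::KanMX, a deletion marked by a drug-resistance cassette) with zinc, the mutant without zinc, the wild type with zinc and the wild type without zinc, where zinc means 5 mM ZnCl2 for 1 h. The comparisons were pif1 against wild type, both with zinc; pif1 against wild type, both without zinc; zinc against no zinc in pif1; and zinc against no zinc in the wild type. Each had 2 arrays with the dyes exchanged, and the labels do not say whether these came from separate cultures or how many mutant clones were used, so a p-value here may rest on technical spread alone.

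All values below are ratios with the first-named RNA on top, taken as log2 (the base is not given in the sources used here), with each array centred on its median. A ratio therefore gives the level of a gene relative to the other genes, and a change in RNA per cell or in the mix of cells in a culture cannot be told apart from it. A gene was tested where both arrays of a comparison had a value, with limma, a spread pooled over the 8 arrays and Benjamini-Hochberg adjustment over all genes tested, and passed at an adjusted p under 0.05.

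PIF1 itself lay at −3.72 as deposited on replicate 2 of the mutant comparison with zinc and at −4.90 on replicate 2 without zinc. Its other 2 values on the mutant arrays were placeholders, and none was listed for it on the arrays of the zinc comparisons. Between 73.3% and 82.4% of the 6212 IDs had a value on an array, and between 55 and 62 of the 67 members. The SD between the 2 arrays of a pair was 0.225, 0.215 and 0.235 over all genes for pif1 with zinc, pif1 without zinc and zinc in the wild type, but 0.431 for zinc in pif1. The pooled spread is thus narrower than that of the last pair and wider than that of the others. Results are therefore also given with each array weighted by 1 over the squared within-pair SD of its comparison, a setting chosen after these SDs were seen.

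On both mutant comparisons the mitochondrial ribosomal genes lay above the other genes as a body. Their median was 0.35 on replicate 1 and 0.17 on replicate 2 with zinc, and 0.40 on replicate 1 and 0.34 on replicate 2 without zinc. On the zinc arrays it was 0.28 and 0.18 in pif1, against 0.07 and −0.05 in the wild type. All 4 mutant arrays and both zinc arrays of pif1 thus had a member median above 0, while the zinc arrays of the wild type lay on either side of it. In every comparison the member median was higher on replicate 1, whichever dye the first-named RNA carried. The part that array or dye plays in this was not tested.

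**Figure D1:**
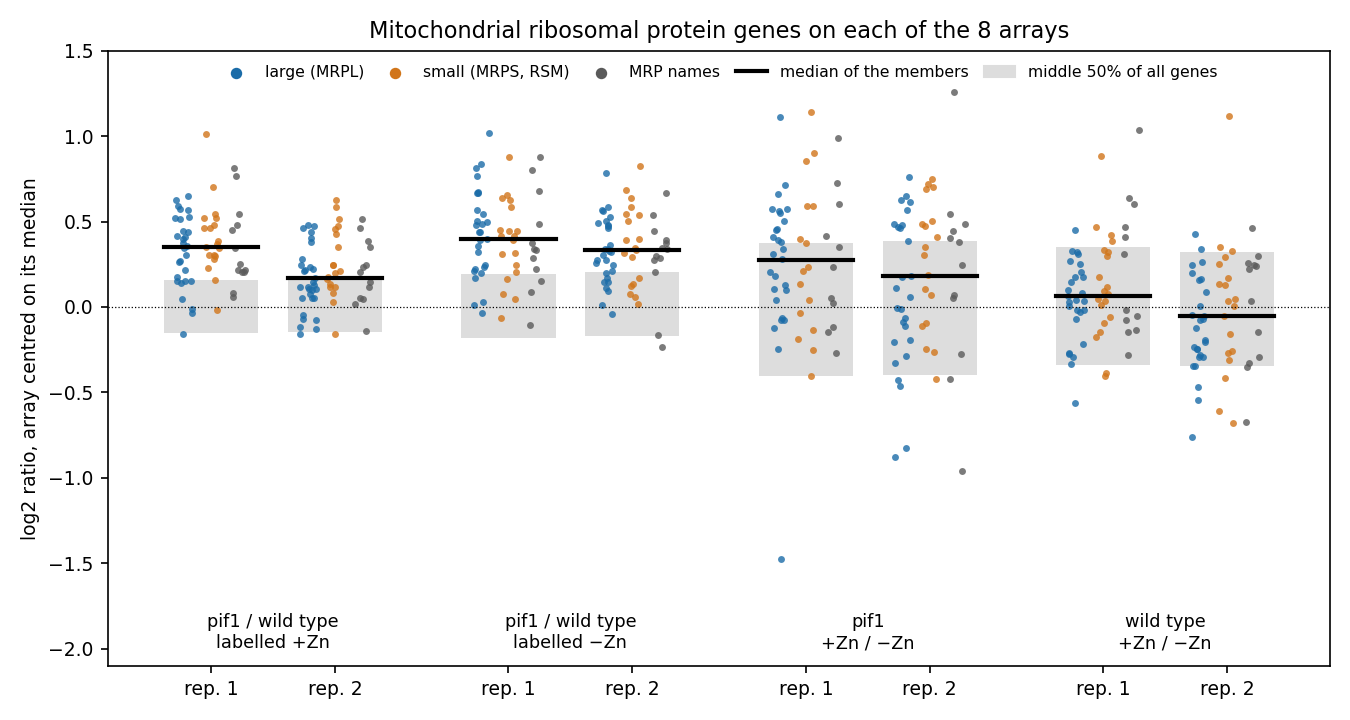
Each point is a mitochondrial ribosomal gene on an array (log2 ratio, array centred on its median), in blue for MRPL, orange for MRPS and RSM and grey for MRP names. Black bars are the member medians and grey boxes the middle 50% of all genes. The member medians of all 4 mutant arrays except replicate 2 with zinc lie above the grey box, and those of the zinc arrays lie inside it.

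With zinc, pif1 cells had most mitochondrial ribosomal genes at slightly higher levels than wild-type cells. Of 61 members tested, 57 had a mean above 0, with a median of 0.27 against −0.01 for all 4657 genes tested. No member passed the test by limma, while 0.988% of all genes tested were called higher and 0.193% lower. At an unadjusted p under 0.05 there were 13 members, all above 0, or 13 of 61 against 9.81% of all genes. On both arrays of the pair 50 members were above 0 (82% of the members, against 27.6% of all genes) and 1 was below 0 (against 28.9%).

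The highest member was MRPS5 (YBR251W), the counterpart of bacterial ribosomal protein S5. It read 1.01 and 0.62 on the 2 arrays, a mean of 0.82 ± 0.27 (SD, n = 2, 1.76-fold higher, limma adjusted p = 0.0926). MRP10 (YDL045W-A), a small-subunit protein without a bacterial counterpart, read 0.77 and 0.46 (0.61 ± 0.21, adjusted p = 0.161). Both genes were far from 0 on both arrays, but neither passed. MRP35 (YNL122C) followed at 0.82 and 0.35, and it had a value on 4 arrays only.

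MRPL9, the counterpart of bacterial L3, read 0.63 and 0.44. RSM27, a small-subunit protein without a bacterial counterpart, read 0.52 and 0.51. With the arrays weighted, MRPS5 (adjusted p = 0.0127), MRP10 (0.0359), MRPL9 (0.0395) and RSM27 (0.0469) passed as higher and none as lower. Those 4 of 61 members stand against 2.73% of all genes called higher and 0.623% called lower in that setting.

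At the low end, MRPL35 read −0.04 and −0.12, and it was the only member below 0 on both arrays with zinc. MRPL28 (−0.04 ± 0.13), MRP8 (−0.03 ± 0.15), RSM18 (−0.0020 ± 0.22) and MRPL32 (0.03 ± 0.27; SD, n = 2 each) each had arrays on both sides of 0. MRPL35 and MRPL28 are large-subunit proteins without bacterial counterparts, and RSM18 and MRPL32 are counterparts of bacterial S18 and L32. MRP8 carries a ribosomal name but is not known as a part of the ribosome.

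Without zinc, too, the mitochondrial ribosomal genes lay above the other genes in pif1 cells. The mean was above 0 for 56 of 59 members tested, with a median of 0.35 against −0.0045 for all 4722 genes tested. By limma 1 member, MRPS18, rose and 0 fell, while 1.44% of all genes tested were called higher and 0.593% lower. At an unadjusted p under 0.05 there were 29 members, all above 0, or 29 of 59 against 14.6% of all genes. On both arrays 54 of the 59 were above 0 (91.5%, against 32.1% of all genes) and 1, MRP8, was below (against 32.3%). Same-numbered arrays of different comparisons deviated together (r from 0.393 to 0.510 across genes), which the pooled fit leaves out. With a term for the replicate number in the fit, 14 members rose and 0 fell. The share of all genes called with that term is not given here.

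MRPS18 (YNL306W), the counterpart of bacterial S11, read 0.66 and 0.82 on the arrays without zinc. Its mean of 0.74 ± 0.12 (SD, n = 2) is 1.67-fold higher in pif1 (limma adjusted p = 0.0348). The call ended with a dye term in the fit (adjusted p = 0.0632) and when any 1 array was left out (adjusted p from 0.0784 to 0.436), except either zinc array of pif1 (0.00858). With zinc it read 0.46 and 0.47 (adjusted p = 0.201), and on the zinc arrays of pif1 it was missing. MRPS18 was thus above 0 on all 4 mutant arrays, and both arrays without zinc were higher than both with zinc.

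The next 4 members did not pass. MRP4 (YHL004W), the counterpart of bacterial S2, read 0.88 and 0.54 (0.71 ± 0.24, adjusted p = 0.157), and MRPS9 (YBR146W), that of S9, read 0.88 and 0.50 (0.69 ± 0.26, adjusted p = 0.0582). RSM19 (YNR037C), that of S19, read 0.62 and 0.69 (0.66 ± 0.04, adjusted p = 0.18). MRPL49 (YJL096W), that of L21, read 1.02 and 0.32, the widest pair of these. All but MRPL49 are small-subunit proteins.

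With the arrays weighted, 17 of 59 members passed as higher without zinc and 0 as lower, against 5.17% of all genes called higher and 2.46% called lower. They were 8 MRPL genes, 6 MRPS or RSM genes and 3 MRP genes, and their means ran from 0.40 for MRPL38 to 0.74 for MRPS18. Beyond the genes just given, these were named after their values were seen: MRPS8 (0.64 and 0.64 on the 2 arrays), MRPL44 (0.48 and 0.78), MRPL50 (0.67 and 0.59), MRPL23, MRPL20, MRP2, MRP17, MRPL6, MRPL27, RSM27, MRPL9 and MRPS28. Of the large subunit, MRPL23 (L13) read 0.67 and 0.48, MRPL6 (L6) 0.50 and 0.56, MRPL20 0.57 and 0.57, and MRPL27 0.55 and 0.46. Of the small subunit, MRP2 (S14) read 0.68 and 0.44, MRPS28 (S15) 0.58 and 0.39, and MRP17 (S6) 0.80 and 0.29. The 2 arrays were closest for MRPL20 and farthest apart for MRP17 among these 7 genes. MRPL49 did not pass (adjusted p = 0.0709). Only RSM27 and MRPL9 passed in this setting in both mutant comparisons.

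At the low end without zinc, MRP8 read −0.10 and −0.17. MRPL28 (−0.02 ± 0.04), RSM18 (−0.0035 ± 0.08), MRP20 (0.07 ± 0.43) and MRPL35 (0.11 ± 0.14; SD, n = 2 each) followed. MRP20, the counterpart of bacterial L23, which lies beside the exit of the ribosomal tunnel, read 0.38 on one array and −0.24 on the other. MRP8, MRPL28, RSM18 and MRPL35 were thus among the 5 lowest members both with and without zinc.

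Over the 4 mutant arrays together, 47 of 59 members with all values were above 0 on each (79.7%), against 15.9% of the 4468 genes with all 4 values. The 12 others were MRP8, MRP20, MRPL22, MRPL28, MRPL32, MRPL35, MRPL37, MRPL44, MRPL49, MRPL51, RSM18 and RSM22. RSM22 encodes a methyltransferase-like protein rather than a structural subunit. The mutant ratio with zinc minus that without zinc had a median of −0.11 over the 59 members, with 42 below 0. No member passed the limma test of this difference, in which 0.0671% of all genes were called higher and 0.0671% lower.

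**Figure D2:**
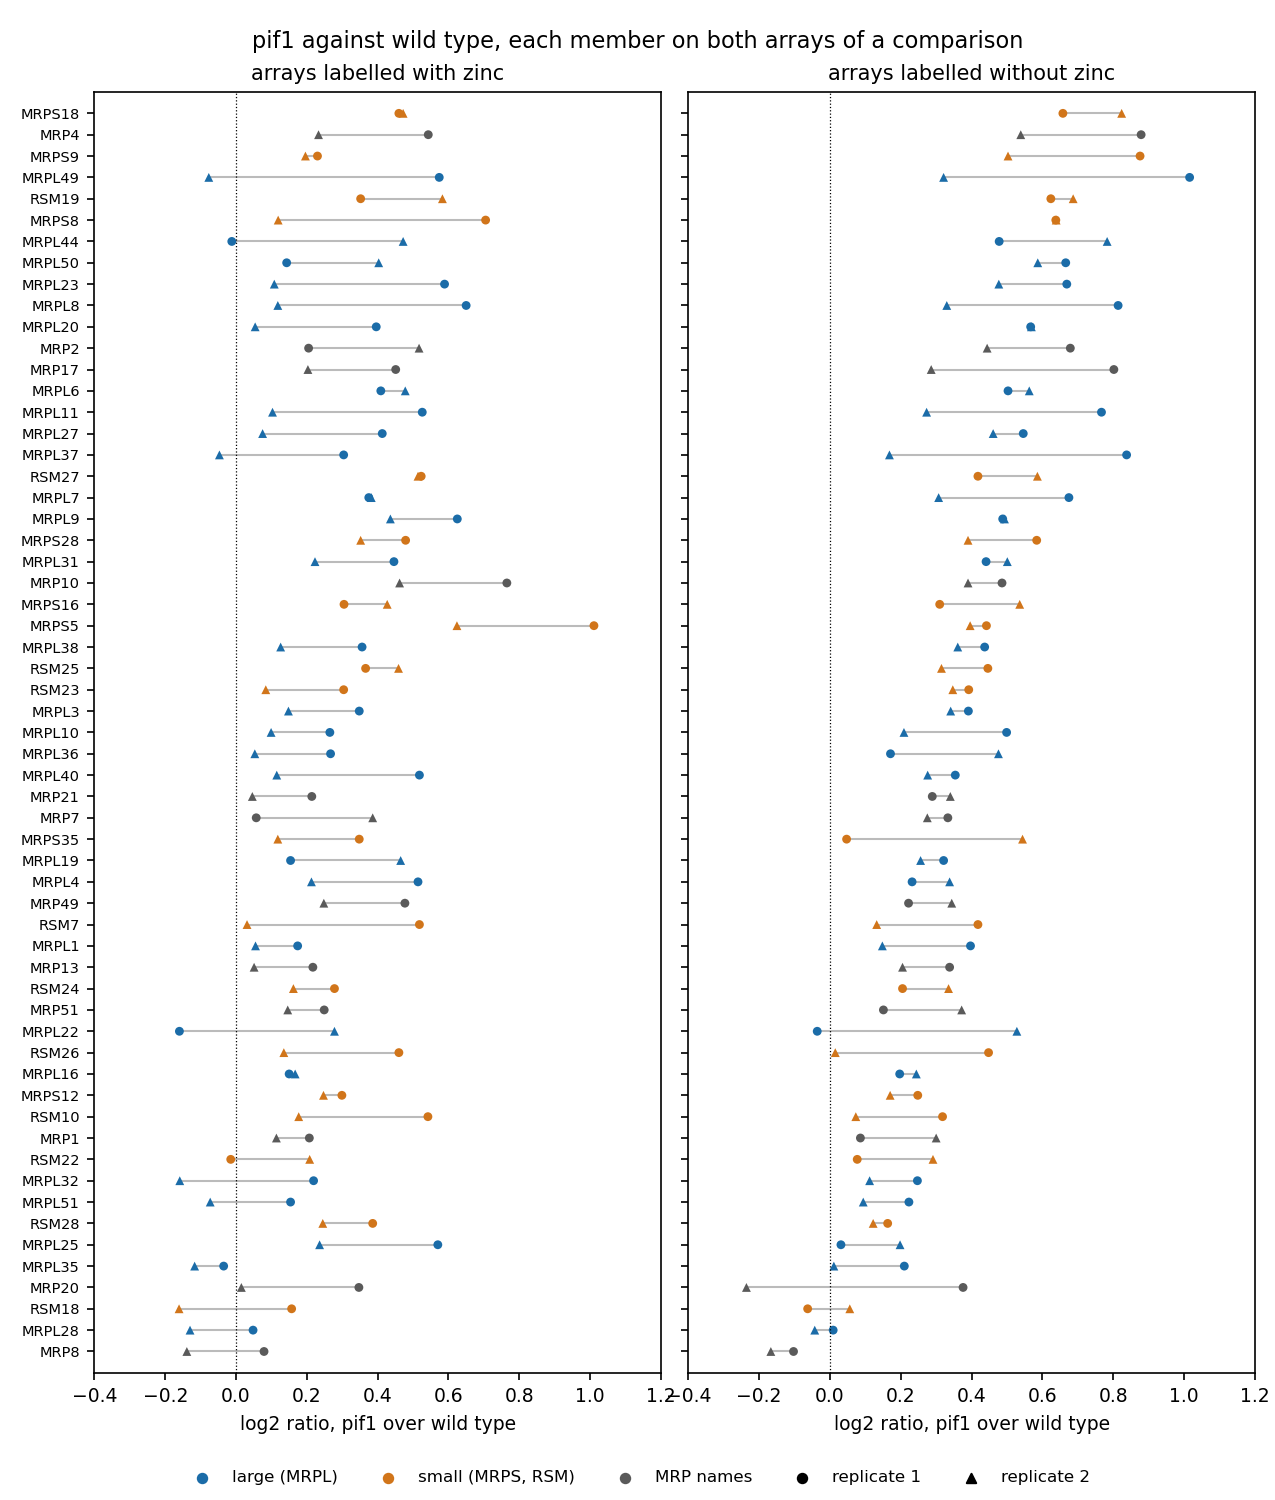
Each row is a mitochondrial ribosomal gene, ordered by its mean on the arrays labelled without zinc, with its log2 ratio of pif1 over wild type on replicate 1 (circle) and replicate 2 (triangle) with zinc (left) and without zinc (right). Colours give the name family as in the legend. On the right 54 of 59 genes have both symbols above 0, and the widest gaps between symbols are those of MRPL49, MRPL37 and MRP20.

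Large-subunit and small-subunit genes had similar medians. With zinc the median was 0.25 over 29 large-subunit genes and 0.32 over 19 small-subunit genes, and without zinc it was 0.38 over 28 and 0.37 over 19. The large-subunit median per array was 0.36 and 0.12 with zinc and 0.44 and 0.32 without, and that of the small subunit was 0.37 and 0.21 with zinc and 0.42 and 0.35 without. In both comparisons the medians of a subunit differed more between its 2 arrays than the 2 subunits differed in their means, and no test of the subunits was made. The MRP names had medians of 0.22 with zinc (13 genes) and 0.29 without (12 genes).

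Members with a bacterial counterpart had a median of 0.32 with zinc (38 genes) and 0.41 without (36 genes). For those found only in mitochondrial ribosomes it was 0.23 (21 genes) and 0.30 (21 genes). These medians have no test, and their ranges overlapped: −0.0020 to 0.82 against −0.08 to 0.61 with zinc, and −0.0035 to 0.74 against −0.02 to 0.63 without. MRPS12 and RSM19 are adjacent genes in the R64 order. MRPS12 read 0.30 and 0.25 with zinc and 0.25 and 0.17 without, and RSM19 read 0.35 and 0.58 with zinc and 0.62 and 0.69 without, so RSM19 was the higher of the pair on each mutant array.

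Proteins of the mitochondrial ribosome that carry other names, such as IMG1, IMG2, NAM9 and PET123, also lay above 0 in pif1. Their median was 0.30 with zinc and 0.32 without (10 genes each), and the mean of each of the 10 was above 0 in both. None passed in the pooled fit. Once the arrays were weighted, 2 of 10 passed as higher without zinc, IMG2 and PET123, against 5.17% of all genes. With zinc 1 of 10 did, SWS2, against 2.73% of all genes. The cytosolic ribosomal proteins (124 genes in each) had medians of −0.09 with zinc and −0.02 without, with 0 genes called in either comparison. Of them 10 with zinc and 27 without were above 0 on both arrays, against 50 of 61 and 54 of 59 of the mitochondrial ribosomal genes.

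Genes that act with the mitochondrial ribosome had medians between 0.06 and 0.41 in the mutant comparisons. The 11 translation factors had medians of 0.06 with zinc and 0.19 without, and the translational activators, which bring single mitochondrial messages to the ribosome, 0.09 and 0.29 (12 genes each). The tRNA synthetases of mitochondria had medians of 0.16 with zinc (10 genes) and 0.41 without (11 genes). NAM2, the mitochondrial leucyl-tRNA synthetase that also acts in splicing, read 0.49 and 0.30 with zinc (adjusted p = 0.52) and rose without zinc (1.15 and 0.89, 2.03-fold, adjusted p = 0.0235). For ribosome assembly and membrane anchors the medians were 0.31 with zinc (12 genes) and 0.18 without (11 genes), and every mean was above 0. This list also holds RSM22, a member counted with the small subunit (0.10 with zinc and 0.18 without). It is therefore not fully separate from the members. NAM2 was the 1 gene of these 4 lists that passed in the pooled fit. In the weighted setting 3 of 45 passed as higher with zinc and 7 of 45 without, 4 of the 7 being tRNA synthetases. None passed as lower in either. Of all genes, 2.73% were called higher with zinc and 5.17% without in that setting.

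Of a list of 8 regulators, HAP4 and PUF3 were the 2 that passed without zinc (6 tested, median 0.24). With zinc 0 of 7 tested passed (median 0.08, 5 above 0 and 2 below). Over all genes tested, 1.44% were called higher without zinc and 0.988% with zinc. HAP4 encodes the activating subunit of the complex that switches on respiratory genes, and PUF3 encodes an RNA-binding protein whose known targets are mostly messages of mitochondrial proteins. PUF3 read 0.83 and 1.03 with zinc (adjusted p = 0.184) and 1.26 and 1.87 without, where it rose 2.95-fold (adjusted p = 0.022). HAP4 read −0.26 and −0.28 with zinc (adjusted p = 0.603) and 0.88 and 1.03 without, where it rose 1.94-fold (adjusted p = 0.0173). PUF3 was above 0 on all 4 mutant arrays, and HAP4 was on opposite sides of 0 in the 2 comparisons. Its difference between them (−1.22) did not pass in the pooled fit (adjusted p = 0.0836) and passed with the arrays weighted (adjusted p = 0.0116). Whether either gene has a part in the ratios of the ribosomal genes was not tested.

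**Figure D3:**
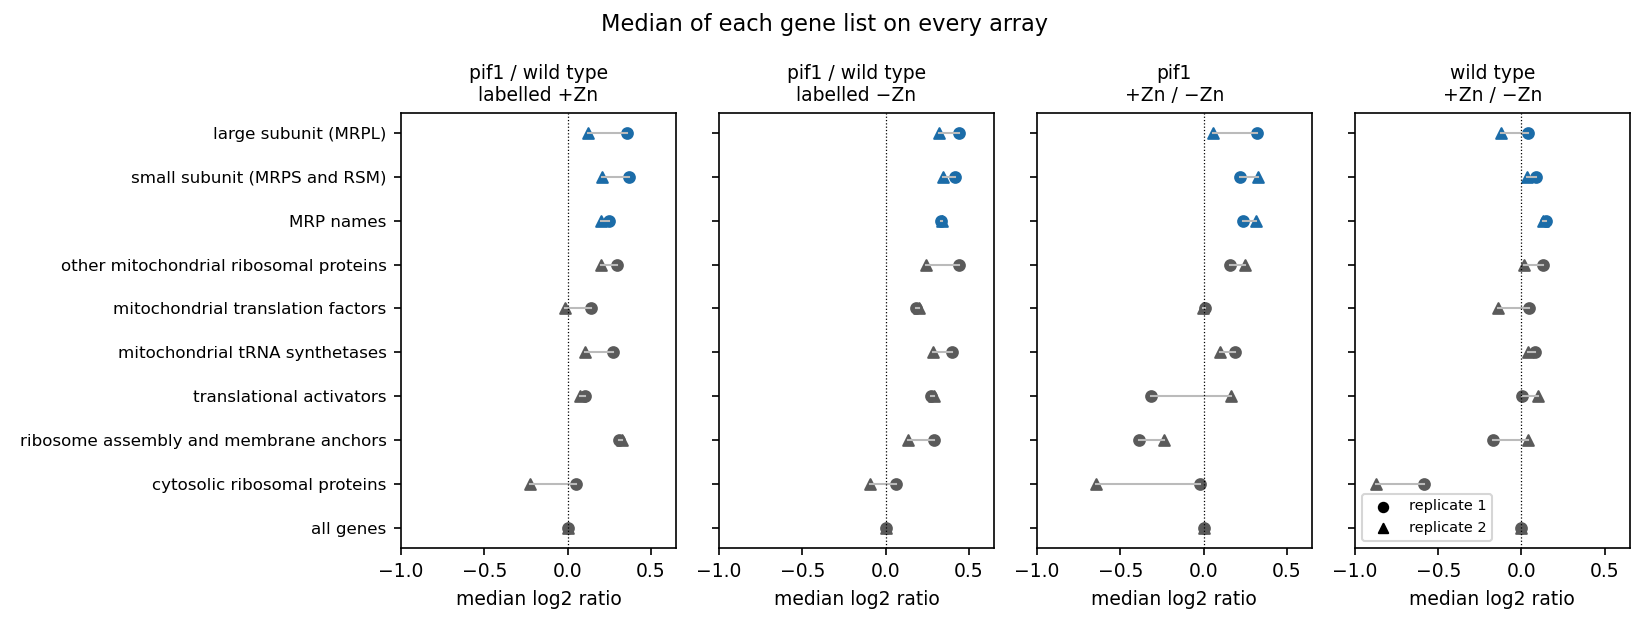
Median log2 ratio of each gene list on replicate 1 (circle) and replicate 2 (triangle) of the 4 comparisons, with the members' families in blue and the other lists in grey. The 3 member families lie between 0.12 and 0.44 on every mutant array, and the cytosolic ribosomal proteins between −0.23 and 0.06.

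Zinc in pif1 cells left most mitochondrial ribosomal genes near or a little above the other genes. Of 53 members tested 43 had a mean above 0, with a median of 0.20 against 0.01 for all 4272 genes tested. By the pooled fit 11 rose (20.8%) and 0 fell, while 15.5% of all genes were called higher and 15.8% lower. The 2 arrays did not rank the members alike: across the 53 members, which share both arrays, their values correlated at r = −0.02, against 0.57 over all genes. Above 0 on both arrays were 22 members (41.5%, against 33.6% of all genes) and below 0 on both 2 (against 32%).

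These 11 calls rest on the pooled spread. With the arrays weighted, 0 of 53 passed by limma, against 4.21% of all genes called higher and 5.2% lower. At an unadjusted p under 0.05 in the pooled fit there were 15 of 53 members, 14 of them above 0, against 42.8% of all genes. Leaving out any 1 array of the other 3 comparisons left 5 or 6 calls, all higher. The share of all genes called in those fits is not given here, so the 5 or 6 calls do not set the members apart from other genes. Leaving out replicate 1 of this comparison left a member median of 0.18 over 57 members. Without replicate 2 it was 0.28 over 55.

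The large-subunit genes called were MRPL23 (counterpart of bacterial L13), MRPL38 (L14), MRPL10 (L15), MRPL16 (L16) and MRPL31, which has no bacterial counterpart. MRPL23 (YOR150W) read 1.11 and 0.48 in zinc-treated pif1 cells over untreated ones (0.80 ± 0.45, SD, n = 2, adjusted p = 0.012). MRPL38 (YKL170W) read 0.58 and 0.62 (0.60 ± 0.03, adjusted p = 0.0083), the closest pair of the called large-subunit genes. MRPL31 averaged 0.54 ± 0.12, MRPL10 0.45 ± 0.16 and MRPL16 0.43 ± 0.06.

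The small-subunit genes called were MRPS12, whose bacterial counterpart S12 sits at the decoding site, RSM10 (S10) and RSM24 (no bacterial counterpart). MRPS12 (YNR036C) read 1.14 and 0.31 (adjusted p = 0.0215), RSM10 (YDR041W) 0.86 and 0.47 (adjusted p = 0.0129) and RSM24 0.21 and 0.69 (adjusted p = 0.0474). These pairs show that the array with the higher value differed between genes. Of the MRP names, MRP8 (0.99 and 0.25), MRP17 (0.60 and 0.38, counterpart of S6) and MRP21 (0.42 and 0.44, counterpart of S21) were called.

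The 5 lowest members after zinc in pif1 were MRP4 (−0.15 and −0.96), MRPL4 (0.11 and −0.88), MRP10 (0.05 and −0.42), MRPL32 (0.10 and −0.46) and RSM25 (−0.04 and −0.26). None passed, and all were lower on replicate 2. MRPL15 had a value on this comparison's replicate 1 only, at −1.48, and was not tested. By family the median was 0.18 over 26 large-subunit genes, 0.24 over 16 small-subunit genes and 0.14 over 11 MRP names. Over the large subunit the arrays had medians of 0.32 and 0.06, and over the small subunit 0.22 and 0.33, so the order of the subunits changed with the array.

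After zinc in wild-type cells few mitochondrial ribosomal genes passed the test, and their means were spread evenly about 0. Of 58 members tested 29 had a mean above 0 and 29 below, with a median of −0.0080 against −0.0020 for all 4635 genes tested. The pooled fit called 2 higher and 2 lower, while 14.7% of all genes were called higher and 15.6% lower. At an unadjusted p under 0.05 there were 8 of 58 members, against 42.6% of all genes. Above 0 on both arrays were 22 members (37.9%, against 39.6% of all genes) and below 0 on both 16 (27.6%, against 39.9%). Their arrays correlated at r = 0.57 across the 58 members, which share both arrays, against 0.87 over all genes.

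Of the 4 calls 2 lie in a stretch of the table where the values of these 2 arrays fit the next ID better than their own. Over 75 neighbouring IDs (YMR176W to YMR250W), the zinc response of the wild type correlated with that of pif1 at −0.08 as listed (40 genes) and at 0.91 once moved by 1 ID (51 genes), against 0.82 outside the stretch. MRPS17 (YMR188C) was listed at 0.88 and 1.12 (adjusted p = 0.00661) and MRPL24 (YMR193W) at −0.56 and −0.76 (adjusted p = 0.0248). Once moved by 1 ID neither has a value there, so neither is described as changed. MRPL44, the other member in the stretch, has no listed value and read 0.23 and −0.20 once moved (adjusted p = 0.963).

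The other 2 calls were RSM25 and MRP21. RSM25 (YIL093C), a small-subunit protein without a bacterial counterpart, fell in the wild type (−0.40 and −0.68, −0.54 ± 0.20, SD, n = 2, 1.45-fold lower, adjusted p = 0.0181). In pif1 it read −0.04 and −0.26 (adjusted p = 0.439). MRP21 (YBL090W) rose in the wild type (0.64 and 0.24, 1.35-fold, adjusted p = 0.0445) and read 0.42 and 0.44 in pif1, so its means in the 2 strains were 0.43 in pif1 and 0.44 in the wild type. The RSM25 call ended without replicate 1 (adjusted p = 0.075) or replicate 2 (0.242) of this comparison. It also ended with all arrays scaled to 1 spread (0.0731) or given 1 distribution (0.0827). That of MRP21 ended without replicate 1 (0.473) or replicate 2 (0.0788), without any 1 mutant array (0.0717 to 0.0768), with a dye term (0.0645), without centring (0.0726) and with the arrays scaled to 1 spread or given 1 distribution (0.149 each). With the arrays weighted 2 members passed as higher and 3 as lower, against 19.6% and 21.2% of all genes. RSM25 and MRP21 were among them, as was MRPS5, which also lies outside the stretch (−0.39 and −0.61, adjusted p = 0.0196).

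Among the remaining members at the ends of this comparison, MRP49 (1.04 and 0.03), MRP20 (0.60 and 0.30) and MRP2 (0.47 and 0.25) were high. MRP4 (−0.15 and −0.67) and MRPL32 (−0.22 and −0.54) were low. None of these passed. MRP49 is a large-subunit protein without a bacterial counterpart, and its mean rests on replicate 1. MRP4 and MRPL32 were also among the 5 lowest members after zinc in pif1.

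In the wild type the median was −0.04 over 27 large-subunit genes, 0.11 over 19 small-subunit genes and 0.24 over 12 MRP names. These subunit medians, and those per array below, include the displaced values listed for MRPL24 and MRPS17. Those were the lowest mean of the large subunit (−0.66) and the highest of the small (1.00). The large-subunit median per array was 0.04 and −0.12, and that of the small subunit 0.08 and 0.03. The cytosolic ribosomal proteins lay mostly below 0 after zinc, except on replicate 1 in pif1, where 56 of 122 were above 0. In pif1 21 of 120 fell and 0 rose (median −0.33), against 15.8% of all genes called lower, and its arrays had medians of −0.02 and −0.64. In the wild type 96 of 126 fell (median −0.74), against 15.6% of all genes called lower. There 1, which lies in the displaced stretch, was called higher. With the arrays weighted 1 of 120 fell in pif1 and 119 of 126 in the wild type, against 5.2% and 21.2% of all genes.

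Among the 4 lists of partners of the mitochondrial ribosome, 3 of 42 genes rose and 7 fell after zinc in pif1 (15.5% and 15.8% of all genes did), and 3 of 42 rose and 3 fell in the wild type (14.7% and 15.6% of all genes). In pif1 the genes that fell include 3 of the assembly and anchor list. They were OXA1, which inserts proteins into the inner membrane (−0.38 and −1.26), MSS116, an RNA helicase (−0.95 and −0.64), and MDM38, a ribosome-binding membrane protein (−0.69 and −0.71). Of the 10 genes of that list tested, RSM22 among them, 1 rose. With the arrays weighted 0 of the 10 rose and 0 fell. Weighting the arrays left 0 that rose and 2 that fell in pif1, MSK1 and AEP3 (4.21% and 5.2% of all genes). In the wild type 5 then rose and 3 fell (19.6% and 21.2% of all genes). Of the 9 translation factors tested in the wild type 1 rose and 2 fell, where 14.7% of all genes rose and 15.6% fell. PET112, a subunit of the enzyme that makes glutaminyl-tRNA in mitochondria, rose there (0.95 and 0.42, adjusted p = 0.0238) and read 0.47 and 0.58 in pif1. GTF1, another subunit of that enzyme, fell in the wild type (−0.55 and −0.84, adjusted p = 0.00839) and read 0.01 and −0.28 in pif1. RRF1, the ribosome recycling factor, fell in the wild type (−0.43 and −0.37, adjusted p = 0.045) and read −0.18 and −0.09 in pif1. The RRF1 call ended with a dye term (adjusted p = 0.0615). The ribosomal proteins with other names had medians of 0.18 in pif1 (9 genes) and 0.0047 in the wild type (8 genes), with 0 called in either.

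The difference between the strains in zinc response was taken from the 4 zinc arrays as pif1 minus wild type. Of 51 members with all 4 values 39 had a difference above 0, with a median of 0.20 against 0.02 for all 4086 genes tested. No member passed, and 0 had an unadjusted p under 0.05, against 11.5% of all genes, while 0.0734% of all genes were called higher and 0.196% lower. Both arrays of pif1 lay above both of the wild type for 13 members (17.7% of all genes did), below them for 0 (18.4%), and overlapped for 38. The cytosolic ribosomal proteins had a median difference of 0.41, also without a call, so a positive difference was not seen in mitochondrial ribosomal genes alone.

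The highest differences were those of MRPS8 (0.55), MRPL49 (0.50), MRPL50 (0.49), MRPL8 (0.48) and MRPL31 (0.48). MRPS8 (YMR158W), the counterpart of bacterial S8, read 0.59 and 0.19 in pif1, against 0.09 and −0.41 in the wild type (adjusted p = 0.472). MRPL50 read −0.25 and 0.65 in pif1, against −0.29 and −0.29 in the wild type. In MRPL50 the difference is nearly all on replicate 2. The lowest were MRPL4 (−0.28), MRP20 (−0.22), MRPL22 (−0.15), MRP4 (−0.14) and MRP49 (−0.12).

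The mutant arrays estimate the same difference, as the mutant ratio with zinc minus that without zinc, and there the member median was −0.11. If the labels and ratios of all arrays held, both estimates would be equal apart from error. Across 3857 genes with all values they correlated at r = −0.25. Which of the 4 comparisons departs from its labels or scale, if any does, was not tested. A stronger or weaker zinc response of the mitochondrial ribosomal genes in pif1 is therefore not shown by these arrays. The member median lay above 0 on each of the 4 mutant arrays, but the doubt over labels and scale covers these arrays too. What is said above of the mutant comparisons with zinc and without zinc rests on their labels.

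**Figure D4:**
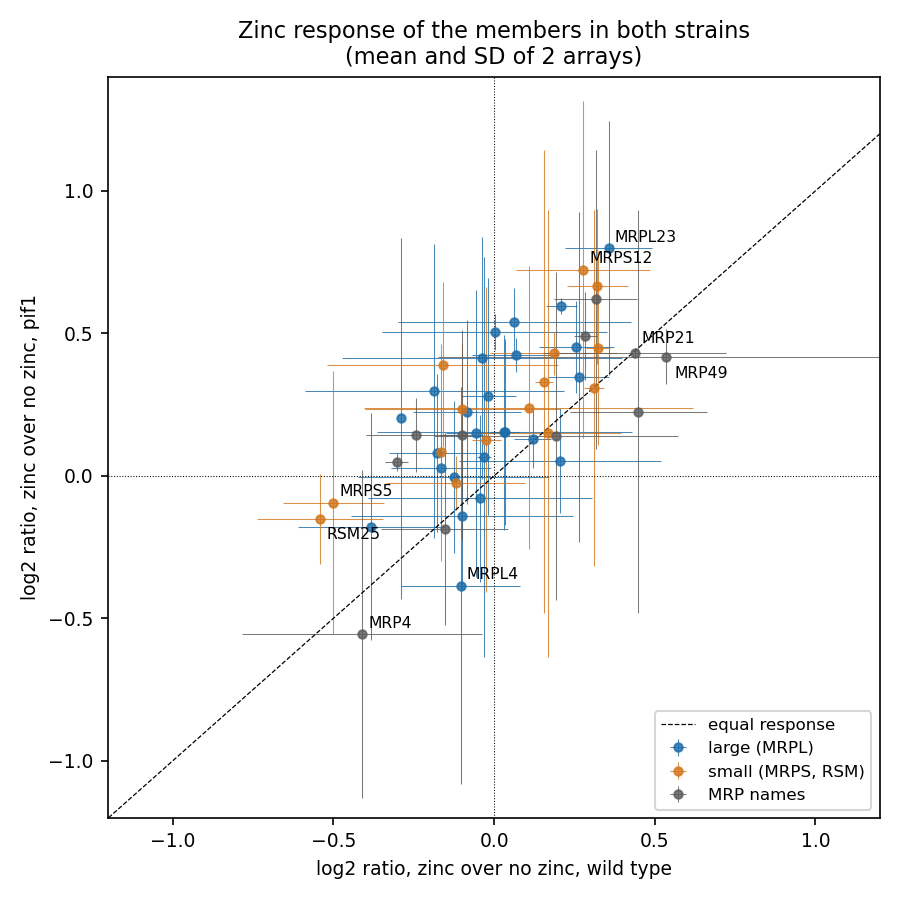
Mean log2 ratio of zinc over no zinc in pif1 (vertical axis) against that in the wild type (horizontal axis) for the 51 mitochondrial ribosomal genes with all 4 values. Bars are the SD of the 2 arrays, and the dashed line marks equal responses. Above the line lie 39 of the 51 genes, and MRP4 and MRPL4 are the lowest in pif1.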

How the data were processed

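The deposited table held 1 column of log ratios per array, taken here as log2, per the labels made by the authors from spots of at least 120 um and fluorescence of at least 100 units. The log base, scanner software, background correction and normalization are not given in the sources used here. Direction was read as first-named over second-named RNA: the pairs correlated above 0 over all genes despite exchanged dyes, and PIF1 was low on the mutant arrays. On replicate 1, Cy5 marked the first-named RNA in the zinc comparisons and Cy3 in the mutant comparisons. The lowest correlation between 2 arrays was −0.365, for zinc in the wild type replicate 1 with pif1 without zinc replicate 2, and the direction was kept because the labels state the dyes. Labelled cDNA came from 8 ug of total RNA.

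The 2 values larger than 16 in size, placeholders of PIF1, were set to missing, arrays were centred on their medians, and 5662 IDs were matched to R64 by locus tag. The fit used limma (version 3.58.1, in R 4.3.3) with 1 coefficient per comparison and eBayes, and was run on simulated data. There, changes larger than most member means were added to the wild-type zinc arrays only, with noise independent between arrays. The simulation therefore does not show how well small changes in the mutant comparisons would be found. Only 2 arrays stand behind each value, which limits the precision. The members, gene lists and tests were chosen with earlier results of these data known. Named members are those past the threshold and the 5 highest and 5 lowest means of each comparison and of the strain difference, with PIF1, HAP4, PUF3 and the members in the displaced stretch.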

Additional observations from a re-analysis of the deposited data

How the results depend on the processing

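The direction of the member medians held in every setting for pif1 with zinc, pif1 without zinc and zinc in pif1, while the numbers of members called did not. With zinc in the wild type 4 members were called. That count was 1 with all arrays scaled to 1 spread or given 1 distribution, 11 with a replicate block, 8 with the comparison fitted alone, and 2 with only genes on all 8 arrays or with the displaced stretch left out or moved. With zinc in pif1 11 were called, against 0 with scaled arrays, 1 distribution, the comparison alone or weighted arrays, 7 with a dye term and 17 with a replicate block. With pif1 without zinc 1 was called, against 20 (scaled), 16 (1 distribution), 0 (dye term, or genes on all 8 arrays), 14 (replicate block), 26 (alone) and 17 (weighted). With pif1 with zinc 0 were called, against 10 (scaled), 7 (1 distribution), 2 (replicate block), 5 (alone) and 4 (weighted). The share of all genes called moved too. Weighting took the share called higher from 14.7% to 19.6% for zinc in the wild type and from 15.5% to 4.21% for zinc in pif1. It went from 1.44% to 5.17% for pif1 without zinc and from 0.988% to 2.73% for pif1 with zinc. For the other settings, and with arrays left out below, that share is not given. Those counts therefore do not set the members apart from other genes. The cause of these changes was not tested.

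The member median moved to 0.13 with scaled arrays for zinc in pif1, to 0.48 (scaled) and 0.47 (1 distribution) for pif1 without zinc, and to 0.43 and 0.42 for pif1 with zinc. The median of the strain difference reversed to −0.11 on the mutant arrays and was 0.050 as the mean of both estimates. The large minus small subunit median moved to −0.064 with MRP genes added to their subunit for zinc in the wild type (−0.15 without them), and to 0.12 with genes on all 8 arrays for pif1 without zinc (0.01 otherwise).

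Leaving out each array in turn, with a lone array assumed to vary like the others, gave 0 to 6 members called for zinc in the wild type (0 without its replicate 1, 1 without its replicate 2), 5 to 15 for zinc in pif1, 0 to 10 for pif1 without zinc (10 without either zinc array of pif1), 0 to 4 for pif1 with zinc (4 without either zinc array of pif1) and 0 for the difference. The member median ran from −0.05 to 0.07, 0.18 to 0.28, 0.34 to 0.40, 0.17 to 0.35 and 0.12 to 0.32 in the same order. The large minus small subunit median ran from −0.155 to −0.0425, −0.27 to 0.104, −0.026 to 0.021, −0.086 to −0.010 and −0.227 to −0.017. It reversed for pif1 without zinc, to −0.026 without its replicate 1, and for zinc in pif1, to 0.104 without its replicate 2. Of 1129 settings over the 56 named results 945 kept their side of the threshold, 63 newly passed and 121 no longer passed. Direction was not kept in all of them. With 1 array left out, MRP20 without zinc (mean 0.07) ran from −0.236 to 0.376. Likewise MRPL4 with zinc in pif1 (mean −0.385) ran from −0.8785 to 0.1085.

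As to pairing, same-numbered arrays deviated together in all 6 pairs of comparisons (r from 0.393 to 0.510 across genes), whether their dyes matched or not. The labels number the experiments without saying what arrays of one number share. The correlations show a shared deviation but, with 2 numbers, not where it comes from. The pooled fit leaves it out, so its p-values treat these arrays as independent, and the replicate block is given as an alternative. Detection limits the members too: 16 of 67 lacked a value on at least 1 array.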
